A study of Mus musculus with 12 samples.

Results

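The comparison described here sets 3 arrays of mouse fibroblasts with a hairpin against Chaf1a beside 3 arrays with a hairpin against Renilla luciferase, after 3 days of induced reprogramming. These 6 arrays were chosen by their labels out of 12 in the series, and the other 6 hold the same pair of groups at day 6. All cells were embryonic fibroblasts from E13.5 embryos on a C57Bl/6 and 129X1/SvJ background with the genotype Col1a1::tetOP-OKSM ; R26-M2rtTA, so control and knockdown cells alike carry the doxycycline-driven cassette for Oct4 (Pou5f1), Klf4, Sox2 and Myc and the transactivator that drives it. Hairpins were delivered by retroviral vectors, the factors were switched on with doxycycline for 3 or 6 days, and cells grew in embryonic stem cell medium with serum and LIF. The control hairpin targets a luciferase that these cells do not have. The labels do not say how many hairpins were used or whether separate embryos or cultures stand behind the replicates. Sex-linked transcripts, given below, differed so widely that replicate 2 did not come from the same cells as replicates 1 and 3. Whether replicates 1 and 3 share a source is not stated. A p-value measures only the spread between these samples, part of which may be technical.

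CAF-1 is the histone chaperone that places new H3 and H4 on DNA behind the replication fork. Chaf1a encodes its large subunit, Chaf1b the middle subunit, and Rbbp4 the small subunit, which many other chromatin complexes also contain. Loss of CAF-1 loosens chromatin in dividing cells, and the series asks how its depletion acts during early reprogramming, when fibroblasts still have their own programme and have only begun to meet the induced factors.

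Values are log2 of the deposited array intensity, a fold change is the knockdown minus control difference on that log2 scale, and SE is its standard error in the fit. Correlation between any 2 day 3 arrays was 0.993 to 0.997 over the 17860 genes tested. Knockdown and control were compared within replicate number, as planned. After the group means were removed, arrays that share a replicate number deviated together, with r of 0.14 to 0.18 for the 3 day 3 pairs. The 4 arrays of replicate 2 stood apart from the other 8 in sex-linked transcripts. Xist, the RNA of the inactive X chromosome, lay at 9.17 to 9.74 in replicate 2 and at 3.77 to 4.09 elsewhere. The Y-linked gene Eif2s3y lay at 3.97 to 4.67 in replicate 2 and at 8.27 to 8.59 elsewhere. The labels give no sex, and because replicate 2 holds both hairpins at both days, this split does not separate the groups. The fibroblast markers were high in every array: all 8 of 8 lay above the array median, with a mean of 9.995 to 10.09 in each of the 6 arrays. The median cut alone does not separate cell types. In every array 3 of 3 muscle, 3 of 4 epithelial, 2 of 4 endothelial and 1 of 2 neural markers also passed it. The means of these sets were lower, from 5.92 to 6.76.

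The transcript of the targeted gene was lower in each knockdown array than in its paired control, by a small amount that did not pass the test. Chaf1a read 7.44, 7.72 and 7.42 in control replicates 1 to 3 and 7.35, 7.18 and 7.19 in knockdown replicates 1 to 3. All knockdown values were below all control values, with the narrowest step in replicate 1. The fold change was −0.29 (SE 0.09, 95% interval −0.49 to −0.09, limma adjusted p = 0.616), which is 1.22-fold lower. In a bulk sample, fewer cells that carry the hairpin and less transcript per cell cannot be told apart, and CAF-1 protein was not analysed here.

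Chaf1b, whose product pairs with Chaf1a in the complex, was lower as well, with an estimate larger in size than that of Chaf1a. The difference between these genes was not tested, and their 95% intervals overlap. Chaf1b values were 9.19, 9.29 and 9.12 in controls and 8.84, 8.76 and 8.73 in knockdown arrays. These groups lay apart in every pair, with a fold change of −0.43 (SE 0.09, 95% interval −0.63 to −0.23, limma adjusted p = 0.559), or 1.35-fold lower. Rbbp4 read 9.88, 9.99 and 9.96 in controls against 9.996, 9.71 and 9.95 with the hairpin, and its groups overlapped. The Rbbp4 fold change was −0.06 (SE 0.08), and −0.14 when its 2 probe sets were averaged in place of taking the one with the highest level. By day 6 the Chaf1a fold change was −0.12 (SE 0.09) and that of Chaf1b −0.20 (SE 0.09). The difference between days was 0.17 (SE 0.13) for Chaf1a and 0.23 (SE 0.13) for Chaf1b, with limma adjusted p of 0.926 and 0.898.

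**Figure D1:**
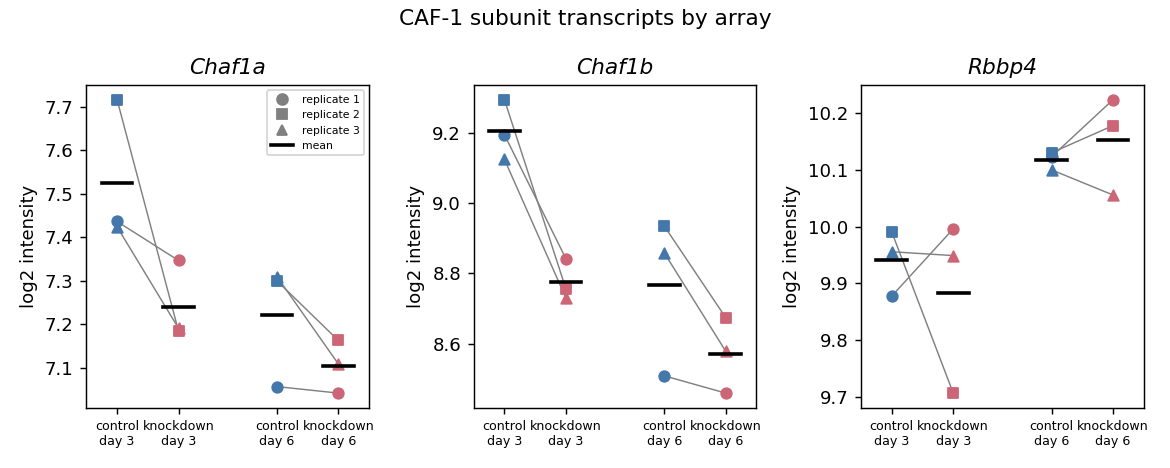
Log2 intensity of the 3 CAF-1 subunits in each of the 12 arrays, with control arrays in blue, knockdown arrays in red, a line joining each same-number pair and a black bar at the group mean; axes do not start at 0. Chaf1a and Chaf1b are lower with the hairpin in all 3 day 3 pairs, and Rbbp4 crosses.

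Across the genome the hairpin left no gene past the threshold at day 3. Of 17860 genes, 0 were higher and 0 lower at a limma adjusted p of 0.05 (0% called), and the smallest adjusted p was 0.449. At an unadjusted p of 0.05, 633 genes were higher (3.54%) and 604 lower (3.38%), together 6.93% of the genes tested. The groups did not overlap for 930 genes with higher knockdown values (5.21%) and for 999 with lower (5.59%), together 10.8%, and 12.3% of genes were higher and 13.6% lower in 3 of 3 pairs. The median fold change was −0.01, and 45.8% of genes had a value above 0. Only 38 genes (0.213%) had a fold change of at least 0.5 in size and 2 (0.0112%) of at least 1. The unadjusted 95% interval of a gene reached a median of 0.18 to each side with 3 arrays a group. The adjusted threshold was stricter, and larger differences also failed it, such as that of Gpnmb (0.56, SE 0.09, limma adjusted p = 0.449). That 0 genes passed therefore does not show that differences of this size were absent.

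The genes with the smallest p-values, none of which passed, formed 2 groups of 10. Those higher with the hairpin came from unrelated families. Gpnmb, a membrane glycoprotein, read 7.26, 7.70 and 7.66 in controls and 7.76, 8.43 and 8.10 in knockdown arrays, a fold change of 0.56 (SE 0.09, 95% interval 0.36 to 0.76). All 3 knockdown values lay above the controls. Gnrh1, which encodes the hormone that releases gonadotropins, read 5.13, 4.98 and 5.01 against 5.46, 5.38 and 5.45. Rnf26, a ubiquitin ligase of the endoplasmic reticulum that acts on the DNA-sensing relay Sting1, read 9.44, 9.43 and 9.39 against 9.74, 9.77 and 9.76. Its 3 controls agreed within 0.1 and so did its 3 knockdown arrays, and the fold change was 0.34 (SE 0.06). That value holds for the probe set with the highest level, and the mean of the gene's probe sets gave 0.06. The other 7 were DQ267102, Tcl1b2, the zinc finger gene Zfp113, the lipid-binding gene Sec14l3, the guanine deaminase Gda, the mitochondrial sirtuin Sirt4 and the secreted matrix protein Adamtsl5, with fold changes of 0.35 to 0.42.

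The 10 lower genes with the smallest p included Chaf1b, a histone methyltransferase and a pair of transcription factors. Kmt2c, which methylates H3K4 at enhancers, read 7.28, 7.49 and 7.27 in controls and 6.89, 6.95 and 6.98 with the hairpin. Every knockdown value was below every control value, and the fold change was −0.41 (SE 0.07, 95% interval −0.58 to −0.25, limma adjusted p = 0.449). Zfhx3 and Zfhx4, a pair of large zinc finger and homeobox transcription factors, had fold changes of −0.35 (SE 0.08) and −0.32 (SE 0.07). Zfhx3 read 9.43, 9.75 and 9.48 in controls against 9.02, 9.33 and 9.26 with the hairpin. The kinesin Kif26b (−0.25), Arhgef12 (−0.31), the keratin Krt40 (−0.32), Kctd12b (−0.28), Rprl2 (−0.33) and Rps19-ps3 (−0.42) made up the group with Chaf1b. Rps19-ps3 is a pseudogene copy, so its probes may also read the parent gene.

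**Figure D2:**
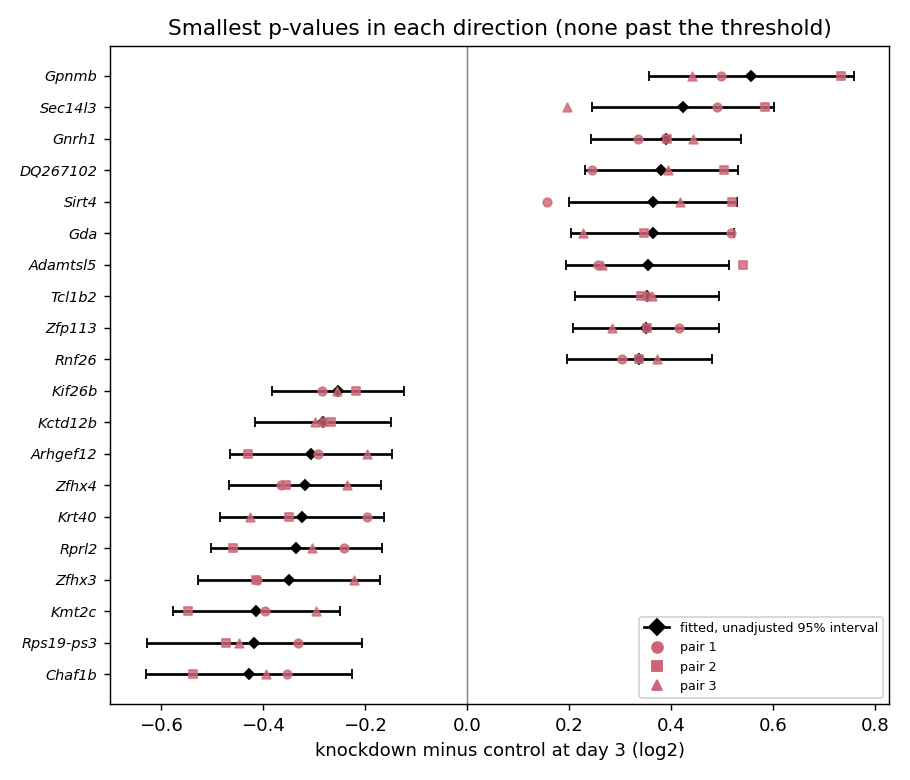
Knockdown minus control at day 3 (log2) for the 10 genes with the smallest p in each direction; red marks are the 3 same-number pairs, black diamonds the fitted fold change with its unadjusted 95% interval. Each of these genes has all 3 pairs on the same side of 0, and none passes the adjusted threshold.

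Ranking instead by size among genes whose groups did not overlap gave a different upper end, led by antiviral genes described next, and the long RNA of nuclear paraspeckles, Neat1. Neat1 read 10.44, 9.16 and 10.48 in controls and 10.81, 10.90 and 10.81 with the hairpin. The fold change of 0.81 (SE 0.23, limma adjusted p = 0.578) owed much of its size to control replicate 2, and leaving out single arrays took it down to 0.39. H2aw, a histone H2A gene, read 5.42, 4.95 and 5.46 against 5.84, 6.02 and 5.65 (fold change 0.56, SE 0.15), and had 0.37 without control replicate 2. Cldn11, a tight junction protein, read 7.37, 7.08 and 6.98 against 7.77, 7.48 and 7.69 (0.50, SE 0.13). The defensin gene Defa40 (0.50, SE 0.14) and the lectin-like gene Clec2d (0.55, SE 0.22) completed this set, and Clec2d had 0.35 without control replicate 2 and 0.34 without knockdown replicate 2.

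At the lower end of that ranking stood Aurkc, an Aurora kinase best known from meiosis, at 5.98, 6.21 and 5.97 in controls and 5.42, 5.87 and 5.48 with the hairpin. Its fold change was −0.46 (SE 0.11), and pair by pair the knockdown array was the lower. Phgdh, the first enzyme of serine synthesis, read 8.26, 8.20 and 8.44 against 8.13, 7.86 and 7.77 (−0.38, SE 0.10). Rabggtb, a subunit of the enzyme that prenylates Rab proteins, read 7.84, 8.05 and 7.99 against 7.71, 7.40 and 7.57 (−0.40, SE 0.10). The remaining genes were Fam163b (−0.43), Dcpp3 (−0.41), the solute carrier Slc35f1 (−0.40) and H2ac21 (−0.40), beside Chaf1b, Kmt2c and Rps19-ps3.

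A set of interferon-stimulated genes was high in 1 of the 3 knockdown arrays. Type I interferons signal through Ifnar to Stat2 and Irf9, which take part in binding the interferon-stimulated response element in promoters of antiviral genes. In knockdown replicate 2, 24 genes lay at least 1 log2 unit above the median of the other 5 day 3 arrays (0.134% of genes tested), and 16 of the 24 belonged to the 84 tested members of the lists for nucleic acid sensors, interferon relays, antiviral effectors, antigen presentation and interferon-induced chemokines. These 84 were among 17860 genes tested, and the lists were chosen with earlier results of these data known. The overlap is therefore only described. Xist was another of the 24, through the replicate 2 split described above. In the other knockdown arrays 1 gene (replicate 1) and 0 genes (replicate 3) lay that far above.

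Of the 24 genes, 16 had a RefSeq promoter entry, and 7 of the 16 (43.8%) held GAAA, any 2 bases and GAAA again, the core of the interferon-stimulated response element, on either strand within the 250 bases before the start of the gene, the only part of the entry that was searched. Among all 13766 genes tested that had an entry, 416 (3.02%) held it. No other motif was searched, and a match is only a match of letters. Stretches around the matches in 5 of the genes are printed to show the shared letters, 5′ to 3′ on the gene's strand, from RefSeq on GRCm38.p6, with each match in capitals (TTTC, any 2 bases and TTTC is the same element on the other strand, and overlapping matches run together).
Isg15: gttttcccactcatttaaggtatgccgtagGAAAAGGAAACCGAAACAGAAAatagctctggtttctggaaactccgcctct
Ifit1: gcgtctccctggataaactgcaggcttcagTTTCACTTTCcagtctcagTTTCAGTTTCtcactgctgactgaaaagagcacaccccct
Bst2: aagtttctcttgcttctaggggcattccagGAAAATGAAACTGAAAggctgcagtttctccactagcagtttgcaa
Gbp7: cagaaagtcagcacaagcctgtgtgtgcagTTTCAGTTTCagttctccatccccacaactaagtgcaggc
Irgm1: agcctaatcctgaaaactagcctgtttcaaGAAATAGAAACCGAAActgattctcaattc
The Isg15 stretch lies at chr4:156200845-156200926 on the minus strand and holds 3 overlapping matches. Ifit1 lies at chr19:34640755-34640843 on the plus strand with 2 separate matches, and Bst2 at chr8:71537557-71537632 on the minus strand with 2 overlapping ones. Gbp7 lies at chr3:142530253-142530322 on the plus strand with 1 match, and Irgm1 at chr11:48871421-48871480 on the minus strand with 2. All 5 stretches lie upstream of the annotated start, outside the transcript. The near-identical genes Apol9a and Apol9b held the other matches, and their probes may not tell the copies apart.

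Isg15, a ubiquitin-like protein conjugated during antiviral responses, read 5.36, 5.31 and 5.24 in controls and 5.47, 7.32 and 5.58 with the hairpin. Knockdown replicate 2 was the high array, and the other knockdown arrays lay 0.11 and 0.33 above their paired controls. The fold change was 0.82 (SE 0.33, limma adjusted p = 0.671) and 0.22 without knockdown replicate 2. Usp18, the protease that removes Isg15 and damps the receptor, had the widest fold change of a named gene at 1.05 (SE 0.43, limma adjusted p = 0.678) on values of 5.63, 6.13 and 5.65 against 5.79, 8.61 and 6.16. Without knockdown replicate 2 the Usp18 fold change was 0.25.

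Bst2, which tethers budding viruses to the cell surface, read 8.06, 8.67 and 8.50 in controls and 8.71, 10.64 and 8.43 with the hairpin (0.85, SE 0.32, and 0.28 without the high array). Rtp4, an interferon-induced regulator, read 5.24, 5.38 and 5.29 against 5.23, 8.02 and 5.34, so that its fold change of 0.89 (SE 0.49) turned to −0.03 without the high array. The RNA sensor Ifih1, the guanylate-binding gene Gbp7, the oligoadenylate synthetase gene Oas2 and Apol9b turned in the same way, from 0.51 to −0.04, from 0.45 to −0.10, from 0.62 to −0.11 and from 0.69 to −0.03. Xaf1 (0.80 to 0.11), Oasl2 (0.91 to 0.12) and Ifit1 (0.63 to 0.14) kept their direction at a small size. Ifi27 kept more of its size, with 6.08, 6.87 and 6.86 in controls against 6.998, 8.48 and 7.05 and a fold change of 0.91 (SE 0.31) that was 0.47 without the high array. The secreted glycoprotein gene Lgals3bp (0.95, and 0.38 without it) and the inhibitory receptor gene Lilrb4a (0.62, and 0.14 without it) were also among the 24 and belonged to none of the lists.

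Within the list of antiviral effectors, 29 of 31 tested genes had a fold change above 0, where all genes gave 45.8%, and the list median was 0.33 where that of all genes was −0.01. Of the 31, 12 were higher at an unadjusted p of 0.05 (3.54% of all genes) and 0 lower (3.38%), 6 had higher groups that did not overlap (5.21%), and 0 passed the adjusted threshold (0%). Knockdown replicate 2 was the highest of the 6 arrays for 26 of 31, against 16.1% of all genes. The mean deviation of the list was 0.79 in knockdown replicate 2, and between −0.27 and −0.06 in the other 5 arrays. The list median was 0.74 in pair 2, 0.07 in pair 1 and 0.10 in pair 3. Without knockdown replicate 2 it was 0.05, with 20 of 31 genes above 0 (48% of all genes) and 5 of 31 higher at an unadjusted p of 0.05 (2.57% of all genes), 1 lower (3.11% of all genes) and 7 with both remaining knockdown arrays above all controls (9.59% of all genes).

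Some genes of the pathway were higher in all 3 knockdown arrays than in all controls, where 5.21% of all genes were. They were 4 of 18 sensors and relays, 6 of 31 antiviral effectors and 0 of 14 interferon receptors and relays. Antigen presentation gave 1 of 15 and the chemokines 1 of 6. Trim25, the ubiquitin ligase that activates the RNA sensor Ddx58, read 8.40, 8.50 and 8.62 in controls against 8.81, 8.93 and 8.76, a fold change of 0.32 (SE 0.07, limma adjusted p = 0.559) that was 0.26 without knockdown replicate 2. Sting1, the relay of cytosolic DNA sensing, read 9.19, 8.94 and 9.10 against 9.39, 9.38 and 9.23 (0.25, SE 0.08, and 0.22 without it). Myd88, the adaptor of Toll-like receptors, read 8.13, 8.10 and 8.17 against 8.31, 8.47 and 8.37 (0.25, SE 0.08, and 0.18 without it). Ifitm1, which blocks viral entry, read 4.51, 4.65 and 4.29 against 4.72, 4.91 and 4.80 (0.33, SE 0.09, and 0.36 without it). Parp12 (0.46, and 0.25 without it), Irf7 (0.55, and 0.17 without it) and Ddx58 (0.40, and 0.16 without it) also had groups apart, with replicate 2 the highest array. Isg15, Oasl2, Ifi27, B2m and Cxcl10 had groups apart as well. Knockdown replicate 2 was again the highest array for each of them, as for Trim25, Myd88 and Ifitm1. The Oasl2 groups were barely apart, with 4.55 in knockdown replicate 1 and 4.54 in control replicate 3. None of these passed the adjusted threshold.

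The sensors and their relays gave 17 of 18 genes above 0, a median of 0.08, and 4 of 18 higher and 0 lower at an unadjusted p of 0.05, where all genes gave 3.54% higher and 3.38% lower. Antigen presentation gave 14 of 15 above 0 with a median of 0.11, and 3 of 15 higher at that level, B2m, Psme1 and Psmb9. The antigen presentation median was 0.13 in pair 1, 0.34 in pair 2 and −0.004 in pair 3. Knockdown replicate 2 was the highest array for 12 of 15 antigen presentation genes, 8 of 18 sensors and 6 of 14 receptor genes (16.1% of all genes). B2m, the invariant chain of MHC class I, read 12.16, 12.28 and 12.23 against 12.30, 12.62 and 12.37 (0.21, SE 0.07). Interferon receptors and their relays gave 8 of 14 above 0 with a median of 0.03, and the 3 higher at an unadjusted p of 0.05 were Usp18, Irf9 (0.71, SE 0.29, and 0.23 without knockdown replicate 2) and Stat2 (0.41, SE 0.18, and 0.14 without it). Of the 6 chemokines induced by interferon, Cxcl10 (0.28, SE 0.09) and Ccl5 (0.29, SE 0.10) were higher at an unadjusted p of 0.05 and Cxcl9 (−0.27, SE 0.08) was lower. Without knockdown replicate 2 the counts higher at that level were 2 of 18 sensors, 0 of 15 antigen presentation genes and 1 of 14 receptor genes, where all genes gave 2.57%.

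As a list, the interferons themselves did not stand out in the array with high antiviral genes. The mean deviation of the 9 interferon genes tested was −0.02 in knockdown replicate 2, which was the highest array for 3 of the 9 (16.1% of all genes). Over all pairs 7 of the 9 had a fold change below 0 and the median was −0.09, made up of −0.18 in pair 1, 0.06 in pair 2 and −0.20 in pair 3. Ifna7 read 5.47, 5.17 and 5.45 in controls and 5.04, 5.23 and 4.84 with the hairpin (−0.33, SE 0.13). Ifnb1, the interferon that fibroblasts are best known to make, did not pass the low-value filter. Inflammatory targets of NF-kB, which answer other signals, had a median of 0.03. At an unadjusted p of 0.05, 2 of 14 were higher (3.54% of all genes), Icam1 (0.21, SE 0.08) and Lif (0.18, SE 0.08). At day 6 the antiviral list had a median of 0.03. The day 6 minus day 3 difference was −0.96 (SE 0.46, limma adjusted p = 0.878) for Isg15 and −0.98 (SE 0.60, limma adjusted p = 0.909) for Usp18.

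Markers of leukocytes and macrophages, which express many interferon-stimulated genes, were examined in the same arrays. Of 8 defining markers, 2 lay above the array median in every array, Cd68 and Laptm5, and the pan-leukocyte gene Ptprc did not pass the low-value filter. The mean level of the 8 ran from 5.88 to 6.07 in controls and from 5.95 to 6.16 in knockdown arrays. Over the longer list of 14 tested, 11 had a fold change above 0 (45.8% of all genes) with a median of 0.06. At an unadjusted p of 0.05, 2 were higher (3.54% of all genes) and 1 lower (3.38%). The mean deviation was 0.13 in knockdown replicate 2, the highest of the 6 arrays. That array was the highest for 7 of the 14 genes (16.1% of all genes). Cd68, a lysosomal protein rich in macrophages, read 8.88, 8.94 and 8.86 against 9.16, 9.05 and 9.04 (0.19, SE 0.06), and replicate 1 rather than 2 was its highest array. The part of such cells in the antiviral values was not tested.

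**Figure D3:**
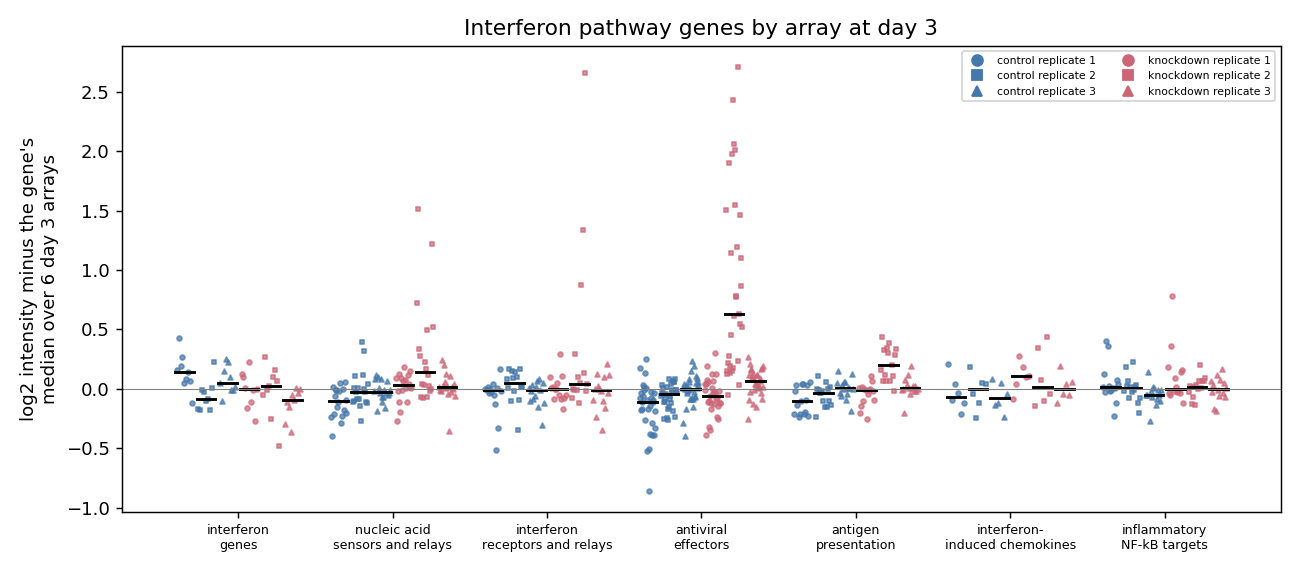
Log2 intensity minus the gene's median over the 6 day 3 arrays, for every tested gene of 7 lists; blue points are control arrays, red points knockdown arrays, shapes give the replicate and black bars the median of the list in that array. The red squares of knockdown replicate 2 lie above the rest among antiviral effectors and, for a few genes, among the sensors, the receptors and their relays, and not among the interferon genes. Among antigen presentation genes that array is the highest for 12 of 15.

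Genes of chromatin assembly other than CAF-1 differed little between hairpins. Of 22 other histone chaperones, 19 had a fold change below 0 with a median of −0.05, where 45.8% of all genes were above 0. At an unadjusted p of 0.05, 1 was lower (3.38% of all genes) and 0 higher (3.54%). The chaperone median was 0.05 in pair 1, −0.16 in pair 2 and −0.04 in pair 3, and −0.01 without knockdown replicate 2, when 9 of 22 were above 0. The lower gene was Atrx, which places H3.3 with Daxx, at 9.38, 9.41 and 9.43 in controls and 9.35, 9.17 and 9.26 with the hairpin (−0.15, SE 0.06). Npm1 and Nap1l1, the chaperone genes with the highest levels, had fold changes of −0.03 and 0.00. Replication-dependent histone genes, most of which lack a poly(A) tail, gave 13 of 21 below 0 with a median of −0.02. Within that family 2 genes lay on opposite sides. H2ac21 read 7.91, 8.11 and 7.76 against 7.71, 7.40 and 7.46 (−0.40, SE 0.10, and −0.24 for the mean of its probe sets), while H2aw was higher as given above. Histone genes have near-identical copies, so a probe set may read more than the gene it names. Of 8 replication-independent variants, H2az2 (−0.17, SE 0.07) was lower at an unadjusted p of 0.05, and H2ax and Macroh2a1, the highest in level, had fold changes of 0.11 and 0.04.

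The replication and division machinery showed pairs that differed in sign. Clamp, loader and polymerase genes had 17 of 21 fold changes below 0 and a median of −0.07, origin licensing and helicase genes 16 of 22 and −0.02, replication stress checkpoint genes 12 of 18 and −0.07, and mitosis genes 19 of 24 and −0.07. In all 4 lists the median was above 0 in pair 1 (0.02 to 0.09) and below 0 in pair 2 (−0.20 to −0.15). It was below 0 in pair 3 as well, at −0.06, −0.005, −0.08 and −0.08. Without knockdown replicate 2 the 4 medians were −0.02, 0.04, −0.01 and 0.00. The only member of the 4 lists at an unadjusted p of 0.05 (6.93% of all genes) was Gins1, a subunit of the replicative helicase. It read 6.05, 5.98 and 5.88 against 5.96, 5.80 and 5.70 (−0.15, SE 0.06). The highest-level members, Pcna (−0.03), Mcm5 (−0.06), Mcm4 (−0.10), Topbp1 (−0.09), Chtf8 (−0.07), Hus1 (0.07), Ect2 (0.00) and Anln (−0.08), had fold changes of at most 0.10 in size.

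Targets of p53 had 12 of 21 fold changes above 0, a median of 0.04 and 0 members at an unadjusted p of 0.05 (6.93% of all genes). Cdkn1a, the p53-induced cell cycle inhibitor, read 12.42, 12.25 and 12.43 in controls and 12.51, 12.39 and 12.48 with the hairpin (0.09, SE 0.06), higher in 3 of 3 pairs with overlapping groups, and Ccng1 had a fold change of 0.00. Of the Cdkn2 locus and other inhibitors, Cdkn1c (0.24, SE 0.10) was higher at an unadjusted p of 0.05. Cdkn2a, a barrier to reprogramming, had −0.09 (SE 0.08). Rb1 had 0.02 (SE 0.07) on the probe set with the highest level and 0.19 when its probe sets were averaged.

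Among chromatin modifiers, both H3K4 methyltransferases of the Kmt2c and Kmt2d pair were lower. Kmt2d read 7.61, 7.86 and 7.59 in controls and 7.38, 7.44 and 7.52 with the hairpin (−0.24, SE 0.08, limma adjusted p = 0.616), with groups apart as for Kmt2c. Ezh1, a Polycomb methyltransferase of H3K27, was higher at 9.45, 9.45 and 9.66 against 9.71, 9.78 and 9.66 (0.20, SE 0.07). The list of H3K4 and H3K27 enzymes as a whole had a median of −0.04, with 13 of 20 below 0. At an unadjusted p of 0.05, 2 were lower (3.38% of all genes) and 1 higher (3.54%). The cytosine oxidase Tet3 read 8.18, 8.25 and 8.14 against 7.95, 7.95 and 8.07 (−0.20, SE 0.06), and was the only 1 of 11 DNA methylation genes at that level. The maintenance methyltransferase Dnmt1 (−0.07) and the reader Mbd2 (−0.05) were near 0. In heterochromatin, Zfp57, which guards imprinted methylation, was higher (0.27, SE 0.10), and Smchd1 (−0.18, SE 0.07) and the H3K9 methyltransferase Ehmt1 (−0.13, SE 0.06) were lower. These were 3 of 21 at an unadjusted p of 0.05 (6.93% of all genes).

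The induced factors themselves were close between hairpins. Pou5f1 read 6.49, 6.52 and 6.40 in controls and 6.40, 6.35 and 6.48 with the hairpin (−0.06, SE 0.07). Sox2 had a fold change of −0.05 (SE 0.07) and Klf4 0.04 (SE 0.06). Myc read 9.18, 8.93 and 9.10 against 9.30, 9.25 and 9.14 (0.17, SE 0.07), higher in 3 of 3 pairs with groups that overlapped, and did not pass (limma adjusted p = 0.684). The array does not say whether a transcript comes from the cassette or from the endogenous gene, since no probe positions were used here.

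Fibroblast genes were likewise close between hairpins at day 3. Of 30 fibroblast and mesenchymal genes, 20 had a fold change below 0 with a median of −0.03, and 1 passed an unadjusted p of 0.05 (6.93% of all genes). It was Dcn, the matrix proteoglycan decorin, at 8.63, 8.88 and 8.92 in controls and 9.06, 9.48 and 9.11 with the hairpin (0.41, SE 0.15), higher and with groups apart. Vim read 13.33, 13.32 and 13.28 against 13.28, 13.32 and 13.36 (0.01, SE 0.06), and Acta2 had a fold change of 0.00 (SE 0.06). Targets of TGF-beta, which holds cells mesenchymal, had a median of 0.00 with 7 of 14 on each side, and their highest members Ccn1 and Timp3 had fold changes of −0.05 and 0.19. Of 8 adipocyte genes, Pparg, the regulator of fat cell fate, was lower at 5.61, 5.54 and 5.56 against 5.26, 5.42 and 5.29 (−0.25, SE 0.06, limma adjusted p = 0.559), and Cebpd was higher (0.22, SE 0.07).

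Epithelial and pluripotency genes also differed little at day 3. Epithelial genes split 15 and 15 around 0 with a median of 0.01 and 0 members at an unadjusted p of 0.05 (6.93% of all genes). The highest of them, Cd24a and Perp, had fold changes of −0.03 and 0.04. Early pluripotency genes had 9 of 16 above 0 and a median of 0.03, and the only member at that level, Dppa5a, was lower at 5.08, 5.13 and 4.95 against 4.90, 4.78 and 4.68 (−0.26, SE 0.09). Fgf4 (0.04) and Alpl (0.17, SE 0.11), the alkaline phosphatase used as a reprogramming stain, did not reach it. Late pluripotency genes had 12 of 19 below 0 and a median of −0.03. Tet1, a cytosine oxidase of stem cells, read 5.98, 6.05 and 6.12 against 5.82, 5.71 and 5.80 (−0.27, SE 0.09), with every knockdown value below every control value. L1td1 (−0.15, SE 0.13) and Klf5 (0.06, SE 0.06) had the highest levels of that list.

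Genes of the state that resembles the two-cell embryo, which loss of CAF-1 is known to favour in stem cells, had 12 of 17 below 0 and a median of −0.05. The 3 at an unadjusted p of 0.05 (6.93% of all genes) were all of the Tcl1b family, a cluster of similar genes whose probes may be shared. Tcl1b2 was higher at 4.90, 4.82 and 4.90 against 5.25, 5.17 and 5.26 (0.35, SE 0.06, limma adjusted p = 0.449). Tcl1b1 was lower at 7.21, 7.10 and 7.09 against 6.62, 7.13 and 6.63 (−0.34, SE 0.13), with pair 2 level, and so was Tcl1b4 (−0.20, SE 0.08). Germline genes had a median of −0.01 over 8 genes, with 0 at that level, and their highest members Stag3 and Dmrtb1 had fold changes of 0.05 and −0.02.

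**Figure D4:**
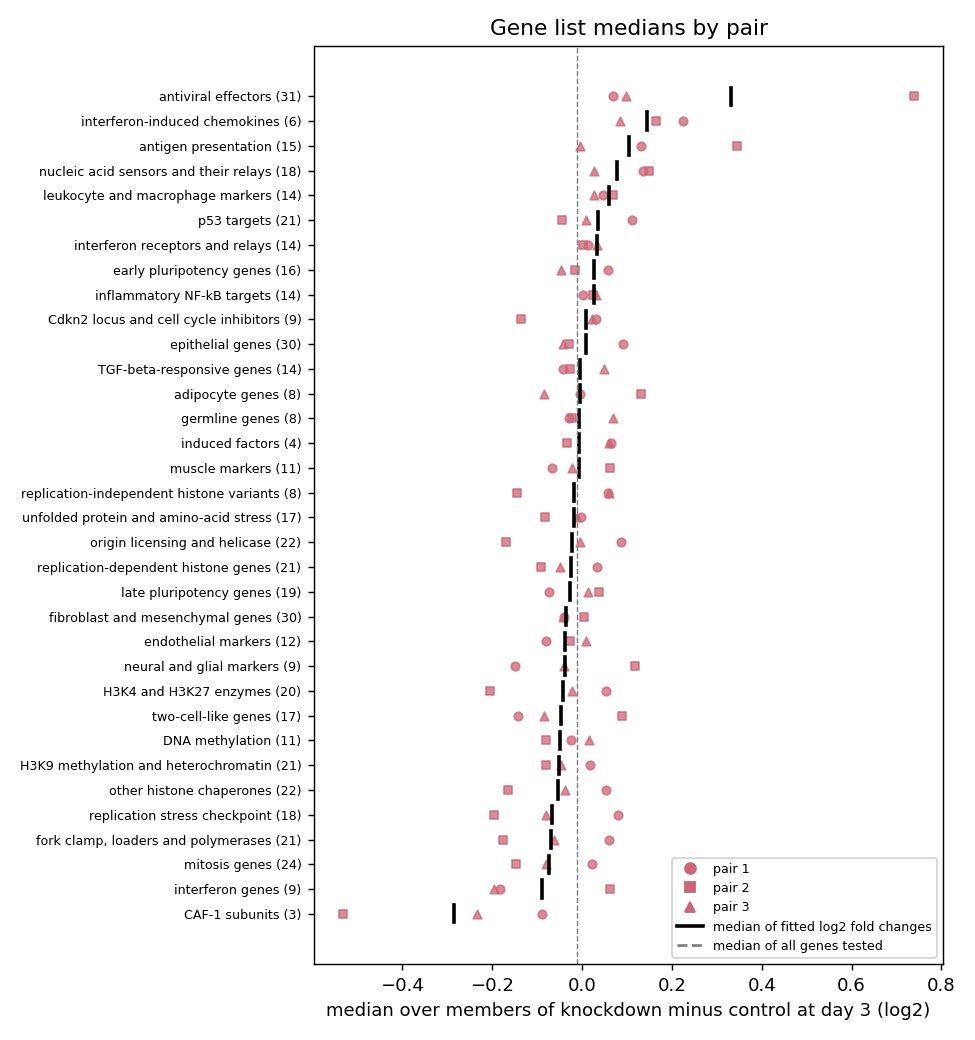
Median over the members of each of 34 lists (number tested in brackets) of knockdown minus control at day 3 on the log2 scale, by pair (red shapes) and from the fit (black bars); the dashed line is the median of all genes, −0.01. Most lists lie close to the line and their pairs straddle it, and antiviral effectors reach 0.33 through pair 2 at 0.74. The list of 3 CAF-1 subunits lies lowest at −0.29, a median that is the value of the targeted gene Chaf1a itself.

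Lists for other cell types and stress responses were small and held at most 3 genes each at an unadjusted p of 0.05. The counts were 3 of 14 leukocyte, 1 of 12 endothelial, 1 of 9 neural and glial, 0 of 11 muscle and 1 of 17 stress genes. All genes gave 6.93%. Endothelial genes had a median of −0.04, with Tie1 higher (0.21, SE 0.08) and Eng and Tek, the highest in level, at 0.12 and 0.06. Neural and glial genes had a median of −0.04, with Nes, an intermediate filament of progenitors, lower (−0.25, SE 0.09) and Map2 at 0.00. Muscle genes had a median of −0.01 and 0 members at an unadjusted p of 0.05, with Acta1 at −0.01 and Tnnt3 at −0.07. Of the leukocyte list, Cd79a was lower (−0.22, SE 0.07) and Fcer1g higher (0.33, SE 0.12), beside Cd68 as given above. The stress genes of the endoplasmic reticulum and of amino-acid supply had a median of −0.02, with Phgdh the only member at that level, while Hsp90b1 (−0.07) and Canx (−0.03) were abundant and near 0.

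Some of the most deviant genes followed the replicate number and not the hairpin. Necab1 was low in both replicate 1 arrays, at 5.73 and 5.76, where the other 4 lay between 8.10 and 8.66. Armcx1 was low in both replicate 2 arrays, at 8.61 and 8.75 against 9.52 to 9.75. Uty and Kdm5d were low in both arrays of replicate 2, as Eif2s3y was. Single arrays also stood apart. Carmn, the host RNA of a smooth muscle microRNA pair, read 7.02 in control replicate 2 and 8.05 to 8.13 in the other 5, and its fold change of 0.40 (SE 0.20) rested on that array. Rsl1 was low at 3.79 in control replicate 1, Npy2r lowest at 4.99 in knockdown replicate 2, and Cd200r2 low at 4.18 in the same array (−0.50, SE 0.20). In control replicate 2, 17 genes lay at least 1 log2 unit below the median of the other arrays, more than the 0 to 10 in the other 5 arrays.

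The knockdown effect at day 3 was tested against that at day 6 in the same fit, which has separate control arrays for each day. No gene passed for the difference (0 of 17860, limma; 1028 genes, 5.76%, at an unadjusted p of 0.05), and the smallest adjusted p was 0.0959. That gene was Car2, a carbonic anhydrase, which read 6.89, 6.98 and 6.77 in day 3 controls against 7.61, 6.85 and 7.12 with the hairpin (0.31, SE 0.14). The pairs at day 3 disagreed for Car2, with replicate 2 lower, whereas at day 6, when 6 genes passed in this fit (0.0336%), all 3 were far apart (1.88, SE 0.14), a difference of 1.56 (SE 0.19). Car2 passed in 3 of 8 other settings that could be run for it and in 2 of 9 that leave arrays out, and Tdgf1 in 1 of those 9.

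Nanog, Sall4 and Cdh1 were also among the genes ranked first for a difference between days, and their fold changes at day 3 were near 0. Nanog read 5.59, 5.64 and 5.59 in day 3 controls and 5.50, 5.65 and 5.65 with the hairpin (−0.01, SE 0.06), and the day 6 effect exceeded that at day 3 by 0.64 (SE 0.09, limma adjusted p = 0.132). Sall4 read 5.98, 5.75 and 5.71 against 5.89, 5.62 and 5.83 (−0.04, SE 0.08), with a difference of 0.81 (SE 0.12, limma adjusted p = 0.132). Cdh1, the epithelial cadherin, read 6.64, 6.88 and 6.59 against 6.91, 6.52 and 6.61 (−0.03, SE 0.13), with a difference of 1.03 (SE 0.18, limma adjusted p = 0.671). Their day 6 fold changes were 0.63, 0.78 and 1.00. These genes were chosen by the p of the difference between days, so the contrast of the values follows from that choice, and none passed. Tdgf1, a co-receptor for Nodal, lay at 4.09 to 4.33 in all 6 day 3 arrays, at or below the level of the filter on low values (4.30 to 4.38).

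In the opposite direction the ranking held genes that were higher with the hairpin at day 3 and lower at day 6. Car11, another member of the carbonic anhydrase family, read 6.42, 6.20 and 6.21 against 6.54, 6.74 and 6.77 at day 3 (0.41, SE 0.09) and had −0.18 (SE 0.09) at day 6. Gapdhs, the sperm form of a glycolytic enzyme, had 0.26 (SE 0.09) and then −0.36 (SE 0.09). Havcr2, an immune checkpoint receptor, had 0.23 (SE 0.06) and then −0.19 (SE 0.06), while Prrt4 had 0.19 and −0.24 and Efcab15 0.29 and −0.22. The limma adjusted p of the difference was 0.785 for all 5 of these genes.

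**Figure D5:**
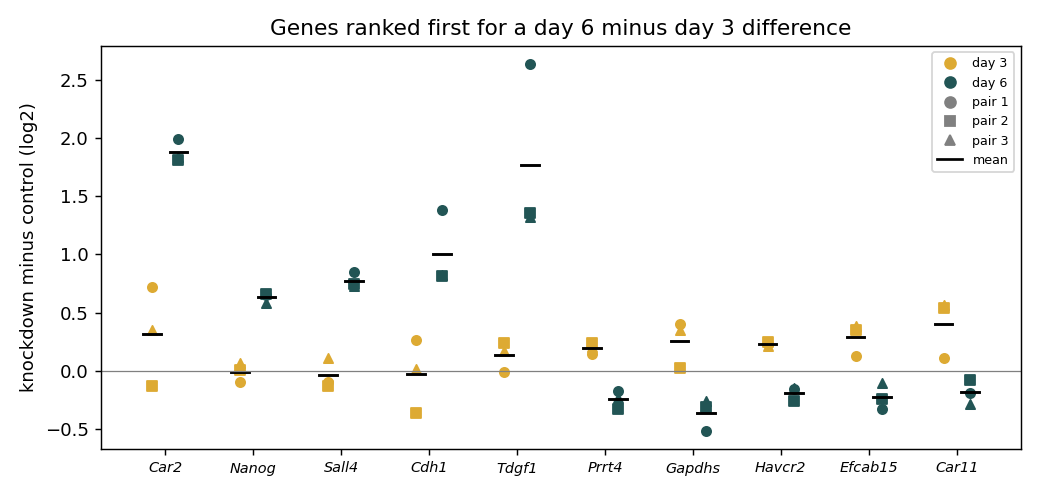
Knockdown minus control (log2) in each same-number pair at day 3 (yellow) and day 6 (dark green) for the 5 genes of each sign with the smallest p for the difference between days; black bars are means. Nanog, Sall4 and Cdh1 lie around 0 at day 3 and at 0.63 to 1.00 at day 6, and the 5 genes on the right lie above 0 at day 3 and below 0 at day 6.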

How the data were processed

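Per the submitters' processing notes, the authors obtained the deposited intensities, which are on a linear scale, with the RMA method of Affymetrix Expression Console (1.3.0.187). No source used here gives the version of RMA, the genome build or the array annotation. The table held 41345 probe sets for 12 arrays. Of these, 23521 named 1 gene and covered 22180 genes, and 1082 genes with several probe sets were represented by the one with the highest mean. The log2 of each intensity was taken. The low-value filter asked for a value at or above the 30th percentile of the array in at least 3 arrays and left 17860 genes.

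The fit (limma 3.58.1 in R 4.3.3) had a mean per group over all 12 arrays and the replicate number as a block. It left 6 residual degrees of freedom, to which limma added 5.02 from the prior. P-values are two-sided, adjusted by Benjamini-Hochberg over all genes, with a threshold of 0.05. The block was planned because the comparison pairs arrays by replicate number. With group means removed, r was 0.00 to 0.37 over all 18 same-number pairs of arrays, and −0.28 to 0.02 over the 36 other pairs between groups. Removing the means ties these ranges together, since r above 0 in same-number pairs lowers it in the others. The same fit was tested on simulated data. The number of arrays, 3 a group, limits the precision. Python 3.11.15 with pandas 2.3.3 made the tables, and matplotlib 3.10.9 drew the plots.

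The members, the 34 gene lists (665 genes listed, 587 matched by gene ID, 534 tested) and the rules were chosen with earlier results of these data known. Named genes are the CAF-1 subunits and induced factors, the 10 smallest p per direction, the 10 highest and 10 lowest fold changes among genes whose groups did not overlap, the 15 genes farthest above and 10 farthest below the other day 3 arrays in a single array, up to 4 members of each list at an unadjusted p of 0.05 or else the 2 of highest level, and 5 genes per sign for the difference between days. Predicted Gm or Rik genes and small RNA genes were counted and not named, and the small Y RNA gene Rny3 was left out with them once its value had been seen. Irgm1, Apol9a and Ifnb1 were named after their values were seen. Sequences are RefSeq's, on GRCm38.p6. A separate fit over all probe sets covered those with several gene names or with none. Alternatives covered the block, the arrays used, the filter, normalisation, an offset of 16, array weights, the variance model, the mean of a gene's probe sets and leaving arrays out.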

Additional observations from a re-analysis of the deposited data

Results flagged for a closer look

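A probe set that names no gene, numbered 17290928, was the only 1 of 9671 such probe sets tested to pass at day 3, in data outside the comparison of named genes. It read 5.40, 5.12 and 6.27 in controls and 7.49, 6.97 and 8.43 with the Chaf1a hairpin, so every knockdown array lay above every control array. The log2 fold change was 2.03 (SE 0.13, limma adjusted p = 0.00271 over all probe sets). Of 17 alternative settings it passed in 10. It did not pass without the replicate block (limma adjusted p = 0.386), when only the day 3 arrays were fitted (0.114 with the block and 0.631 without it), without knockdown replicate 1 (0.0551), or when replicate 1, 2 or 3 was left out of all groups (0.130, 0.412 and 0.156). The value of the fold change ran from 1.72 to 2.12 over the settings. At day 6 the fold change was −0.14, and the difference between the days was itself tested, with a limma adjusted p of 0.0291. That difference passed in 3 of the 15 alternative settings that give it, with an adjusted p from 0.0171 to 0.0327. In the other 12 its adjusted p ran from 0.0550 with normalisation repeated and 0.0592 with the offset to 0.867 without the replicate block, and from 0.0722 to 0.857 with arrays left out. What the probe set reads is not known here.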

How the results depend on the processing

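No gene passed at day 3 in any of 19 alternative settings, where the smallest limma adjusted p ran from 0.149 to 0.9995 and the genes at an unadjusted p of 0.05 from 756 to 1798. Without the replicate block, which pairs the arrays, 0 genes passed and Chaf1a had an adjusted p of 0.726, and the block changed no call of a named gene. Chaf1a lay between −0.39 and −0.16 with arrays left out. For the difference between days, 1 gene (Car2) passed with the offset of 16, with array weights, and with the intensity trend and robust variance, and 0 to 2 with arrays left out: 1 (Car2) without day 3 control replicate 1 and 2 (Car2, Tdgf1) without replicate 1 of all groups. Of the 151 other named genes, 109 kept their sign in every setting and 0 passed in any. In settings other than leaving arrays out, 14 genes turned: with array weights Pou5f1 (0.0018), Rsl1 (−0.0040), Mcm5 (0.0042), Ccng1 (0.016), Map2 (0.054), Acta2 (0.0089), Cd24a (0.045), Dmrtb1 (0.010), Nanog (0.017), Sall4 (0.022) and Cdh1 (0.020), with normalisation repeated Rsl1 (−0.0076) and Map2 (0.0070), with the offset Eif2s3y (0.024) and Rsl1 (−0.018), and with the mean of probe sets Npm1 (0.093) and Vim (−0.042). With arrays left out, these genes spanned 0: Acta1 (−0.18 to 0.17), Acta2 (−0.020 to 0.035), Apol9b (−0.025 to 1.08), Canx (−0.056 to 0.0012), Ccn1 (−0.11 to 0.0045), Ccng1 (−0.034 to 0.022), Cd24a (−0.12 to 0.079), Cdh1 (−0.17 to 0.14), Chtf8 (−0.15 to 0.031), Dmrtb1 (−0.088 to 0.097), Dnmt1 (−0.15 to 0.022), Ect2 (−0.12 to 0.094), Eif2s3y (−0.16 to 0.17), Fgf4 (−0.031 to 0.081), Gbp7 (−0.095 to 0.76), Hus1 (−0.0078 to 0.14), Ifih1 (−0.037 to 0.83), Ifna1 (−0.21 to 0.047), Ifnl2 (−0.18 to 0.016), L1td1 (−0.34 to 0.0027), Macroh2a1 (−0.0014 to 0.093), Map2 (−0.070 to 0.048), Mcm5 (−0.18 to 0.086), Nanog (−0.047 to 0.053), Nap1l1 (−0.052 to 0.043), Npm1 (−0.066 to 0.011), Npy2r (−0.16 to 0.28), Oas2 (−0.19 to 1.02), Pcna (−0.12 to 0.038), Perp (−0.024 to 0.14), Rb1 (−0.059 to 0.098), Rbbp4 (−0.15 to 0.056), Rsl1 (−0.31 to 0.31), Rtp4 (−0.029 to 1.42), Sall4 (−0.11 to 0.038), Sox2 (−0.13 to 0.011), Stag3 (−0.048 to 0.18), Tek (−0.022 to 0.12), Tnnt3 (−0.12 to 0.040), Vim (−0.023 to 0.042), Xist (−0.054 to 0.26). The cause was not tested. List medians moved by more than the SD of their pairs in at least 1 setting for 14 of 34 lists.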

Other observations

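MicroRNA and small nucleolar RNA genes, grouped after their values had been seen, leaned upward at day 3. Of 243 microRNA genes tested, 146 had a fold change above 0 (60.1%, against 45.8% of all genes), with a median of 0.05. The median was −0.03 in pair 1, 0.22 in pair 2 and −0.05 in pair 3, and −0.02 without control replicate 2, in which these genes lay 0.17 below the other arrays. Of the 243, 16 had higher groups that did not overlap and 12 lower, where all genes gave 5.21% and 5.59%. Of 71 small nucleolar RNA genes, 47 were above 0 (66.2%) with a median of 0.08, and the median was 0.08 in pair 1, 0.16 in pair 2 and −0.04 in pair 3, and 0.07 without control replicate 2. Of the 71, 10 had higher groups that did not overlap and 2 lower, to be read against the same 5.21% and 5.59%.

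Pair differences shared little across genes at day 3. Pearson's r over the 17860 genes, which are not independent replicates, was −0.08 between pairs 1 and 2, 0.09 between pairs 1 and 3 and 0.09 between pairs 2 and 3. The first principal component of the 6 arrays held 31.2% of the variance and set control replicate 2 at its end, and the second held 24.7% and set knockdown replicate 2 at its end.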
